A study of Mus musculus with 40 samples.

Results

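The genes described here are 44 interferon-stimulated genes of the mouse cortex, taken by name from the type I interferon response. A gene counted as a member when the deposited count table held its symbol and it reached 10 counts or more in 4 or more of the 40 libraries. All 44 names had a row among the 43346 genes listed, and all 44 were among the 21253 genes that passed this filter. For 39 of the 44 the count was at least 10 in all 40 libraries. *Oas3* passed the filter only through amyloid WT mice, so that a higher value in that group was built into its selection. The members had been put together with earlier results of these data known.

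The study sequenced poly-A RNA from the pulverized cortex of mice carrying the Alzheimer's disease risk variant H157Y of *Trem2*, a microglial surface receptor, knocked into the mouse gene by CRISPR/Cas9. Libraries came from 40 mice in 4 groups of 10, each with 5 females and 5 males, and every library was 1 mouse. Non-amyloid WT mice (*Trem2*+/+) and non-amyloid Hom mice (*Trem2* H157Y/H157Y) carried no amyloid transgene and were 6 months old. Amyloid WT mice (5xFAD; *Trem2*+/+) and amyloid Hom mice (5xFAD; *Trem2* H157Y/H157Y) were 8.5 months old and carried the 5xFAD transgenes, which drive amyloid-β production from the neuronal *Thy1* promoter. The amyloid groups therefore differed from the non-amyloid groups in age as well as in the transgenes, and the part of each cannot be told apart.

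Type I interferons (the IFN-α family and IFN-β) are secreted when a cell detects nucleic acids in the wrong place, and they act through the receptor subunits *Ifnar1* and *Ifnar2* and the kinases *Jak1* and *Tyk2*. The kinases activate *Stat2*, which joins *Irf9* in the complex ISGF3, and this complex binds interferon-stimulated response elements in the promoters of target genes. The targets include antiviral effectors, nucleic acid sensors, and feedback regulators, and in the brain they are expressed by microglia, astrocytes and endothelial cells. An interferon response in microglia around amyloid plaques is known from mouse models.

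The promoters of the members were searched for the sequence that ISGF3 binds. RefSeq promoter windows (GRCm38.p6), running from 250 bases before to 50 bases after a transcript's start, were found for 33 of the 44 members. The core of the interferon-stimulated response element, GAAANNGAAA on either strand, was present in at least one window of 20 of these 33 members (60.6%) and of 1079 of all 27025 genes with a window (3.99%). Counted by window, it stood in 22 of 38 windows of members (57.9%) and in 1131 of all 32851 windows (3.44%). The longer core GAAANNGAAACT, which contains the shorter one, was found in 13 of the 33 members (39.4%) and in 0.303% of all genes. The members hold 31 core matches, of which 26 lie before the transcript's start and 22 within 150 bases before it, and matches in the same window may overlap. They are counted by window, and the overlapping windows of *Slfn8* share a match. A match describes the letters only, and a window without one says nothing of the factor. The 6 promoters below were chosen only among members with a core match. They belong to those of lowest p in the comparison of amyloid with non-amyloid WT mice: *Trim30a* (chr7:104465144-104465443, minus strand), *Slfn8* (chr11:83020761-83021060, minus strand), *Bst2* (chr8:71537423-71537722, minus strand), *Cxcl10* (chr5:92348840-92349139, minus strand), *Rsad2* (chr12:26456403-26456702, minus strand) and *Ifitm3* (chr7:141010695-141010994, minus strand). Each is written 5′ to 3′ on the gene's strand, and capitals mark the core or its reverse complement.
Trim30a: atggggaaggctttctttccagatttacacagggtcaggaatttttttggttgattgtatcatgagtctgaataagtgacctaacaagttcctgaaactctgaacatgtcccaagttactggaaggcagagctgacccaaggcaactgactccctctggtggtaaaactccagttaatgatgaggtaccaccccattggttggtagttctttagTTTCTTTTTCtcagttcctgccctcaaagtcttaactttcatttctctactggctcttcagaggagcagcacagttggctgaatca
Slfn8: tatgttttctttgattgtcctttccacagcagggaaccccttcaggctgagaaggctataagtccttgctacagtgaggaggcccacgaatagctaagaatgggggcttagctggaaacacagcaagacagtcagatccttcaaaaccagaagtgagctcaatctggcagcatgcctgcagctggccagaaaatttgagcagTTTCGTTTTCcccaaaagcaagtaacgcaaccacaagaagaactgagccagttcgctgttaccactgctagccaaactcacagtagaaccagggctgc
Bst2: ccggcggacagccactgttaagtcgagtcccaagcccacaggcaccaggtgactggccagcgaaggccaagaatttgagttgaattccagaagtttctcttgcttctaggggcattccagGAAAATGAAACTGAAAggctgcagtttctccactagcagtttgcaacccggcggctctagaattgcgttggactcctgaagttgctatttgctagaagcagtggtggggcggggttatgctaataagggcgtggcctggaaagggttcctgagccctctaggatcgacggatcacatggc
Cxcl10: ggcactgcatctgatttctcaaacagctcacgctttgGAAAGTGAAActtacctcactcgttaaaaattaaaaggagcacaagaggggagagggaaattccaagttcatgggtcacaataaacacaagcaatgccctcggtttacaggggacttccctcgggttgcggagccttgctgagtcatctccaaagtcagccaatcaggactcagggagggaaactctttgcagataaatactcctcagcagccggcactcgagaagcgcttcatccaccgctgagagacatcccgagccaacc
Rsad2: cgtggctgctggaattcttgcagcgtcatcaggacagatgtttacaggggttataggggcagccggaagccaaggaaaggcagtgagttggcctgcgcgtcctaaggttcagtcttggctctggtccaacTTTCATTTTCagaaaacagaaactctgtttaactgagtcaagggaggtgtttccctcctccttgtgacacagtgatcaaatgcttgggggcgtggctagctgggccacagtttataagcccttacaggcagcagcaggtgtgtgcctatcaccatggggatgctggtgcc
Ifitm3: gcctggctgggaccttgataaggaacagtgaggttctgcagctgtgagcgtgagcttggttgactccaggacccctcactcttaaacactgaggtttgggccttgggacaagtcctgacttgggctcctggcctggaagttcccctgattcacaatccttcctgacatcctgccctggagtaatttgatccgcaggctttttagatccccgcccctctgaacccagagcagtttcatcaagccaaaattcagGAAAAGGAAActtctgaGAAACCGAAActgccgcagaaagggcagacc

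**Figure D1:**
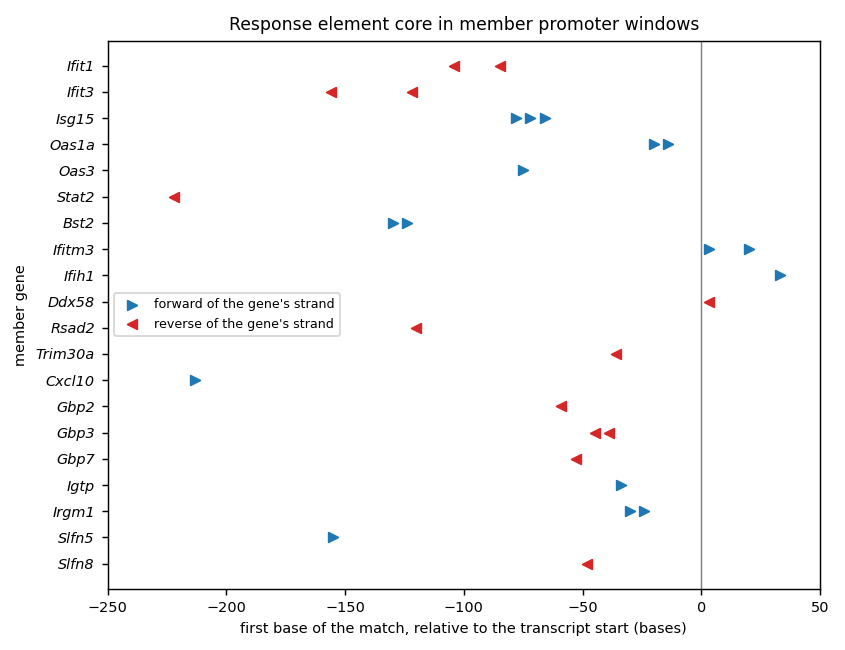
Positions of the core matches in the first promoter window of each of the 20 members that hold one, as the distance in bases of the match's first base from the transcript's start (x axis), with 1 line per gene and arrows for the strand of the match. Over all windows 22 of 31 matches lie within 150 bases before the start.

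Total counts per library ranged from 41646271 to 105903846, and amyloid Hom libraries (41646271 to 95364171) reached lower than the other 30, which began at 62272158. Amyloid Hom replicate 19, a female and the library of lowest depth, had 0.617% of its counts on 569 genes that mostly overlap a stronger gene of the opposite strand, against 0.0144% to 0.0191% in the other 39 libraries. The study left out an amyloid Hom female for its low share of counted reads and its strand check, without naming it, and whether replicate 19 is that library is not stated. All results include it unless said otherwise. *Trem2* itself, whose total count does not check a point change, measured 7.69, 10.4 and 15.2 CPM (the lowest, median and highest of 10 mice) in non-amyloid WT, 7.52, 10.3 and 12.7 CPM in non-amyloid Hom, 30.2, 55.5 and 111 CPM in amyloid WT and 17.3, 34.3 and 49.1 CPM in amyloid Hom mice. The amyloid Hom mice differed from amyloid WT mice in *Trem2* by a log2 fold change of -0.87 ± 0.21 (SE; adjusted p = 0.0763). Neuronal markers of the labelled cortex were present throughout, with a sum over 6 genes of 6356 to 8112 CPM. CPM denotes counts scaled to the library size after adjustment by edgeR's TMM factors.

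In WT mice, the interferon response genes were higher in the amyloid than in the non-amyloid cohort almost without exception. Of the 44 members, 42 were called higher and 0 lower by edgeR's quasi-likelihood test (adjusted p under 0.05 and absolute log2 fold change over 0.25), where 6.62% of all genes tested were called higher. The median log2 fold change of the members was 1.17 (2.24-fold) and their values ran from -0.09 for *Cmpk2* to 3.19 for *Cxcl10*, beside a median of 0.00 over all genes. Leaving aside *Oas3*, 41 of 43 were called. For 38 of the 42 the call held whichever library was left out, and the others were *Ifit2*, *Stat2*, *Ifih1* and *Gbp7*. For 13 members each of the 10 amyloid WT mice lay above each of the 10 non-amyloid WT mice, which held for 1.95% of all genes. In a bulk sample, more cells of a type and more RNA per cell cannot be told apart. All 11 microglial markers were called higher in the same comparison, with a median of 1.55, and their part in the members' values was not tested.

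**Figure D2:**
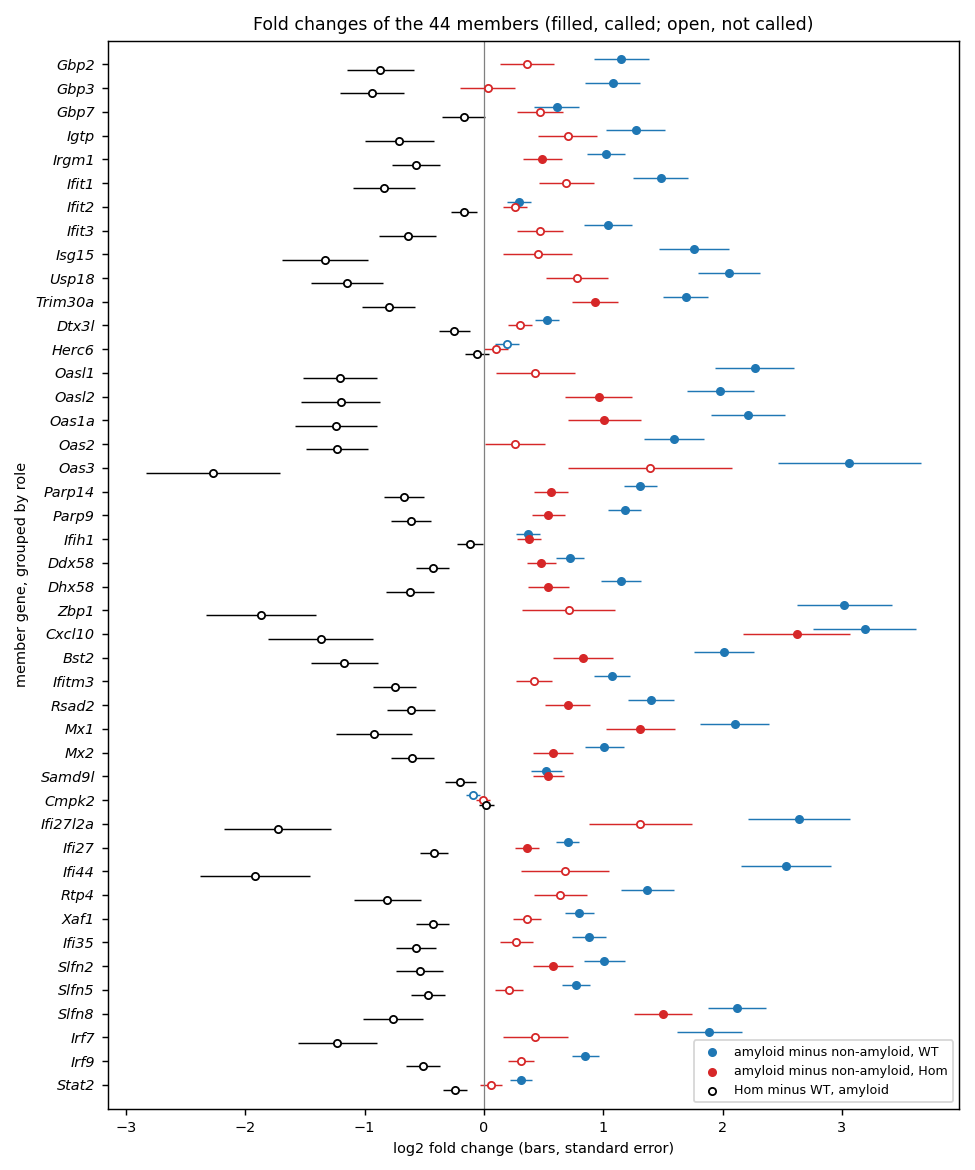
Log2 fold change with its standard error for each of the 44 members (one line each, grouped by role) in amyloid against non-amyloid WT mice, amyloid against non-amyloid Hom mice and amyloid Hom against amyloid WT mice, 10 mice a group. Members lie mostly to the right of 0 in WT mice (median 1.17), less far in Hom mice (median 0.52), and to the left of 0 in amyloid Hom compared to amyloid WT mice (median -0.69).

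In Hom mice the same cohort comparison called 18 of the 44 members higher and 0 lower, where 5.71% of all genes were called higher. The median log2 fold change was 0.52 (1.43-fold), beside 0.03 over all genes, and 30 members had an unadjusted p under 0.05 and were higher (14.7% of all genes). For 2 members, *Trim30a* and *Parp14*, all amyloid Hom mice lay above all non-amyloid Hom mice, against 0.875% of all genes. The count of 18 became 11 without amyloid Hom replicate 3 (5.66% of all genes), 14 without amyloid Hom replicate 19 (3.94%) and 28 without amyloid WT replicate 32 (5.49%), whose group shares the estimate of spread. It was also 28 when only the 20 Hom libraries were fitted (4.58%). For 11 of the 18 the call held whichever library was left out. The difference between the WT and the Hom comparison is the interaction given further on.

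Levels of single members are given below as the lowest, median and highest of the 10 mice of a group, in CPM. Fold changes of the amyloid over the non-amyloid cohort are log2 values with their standard error, in WT mice and then in Hom mice.

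Among the transcription factors, all 3 members were called higher in amyloid WT mice and 0 in amyloid Hom mice. *Irf7*, which amplifies IFN-α transcription once interferon has been sensed (chr7:141262706-141266481, mm10), measured 0.665, 0.908 and 1.59 CPM in non-amyloid WT mice, 0.814, 1.13 and 1.43 CPM in non-amyloid Hom mice, 1.33, 2.55 and 9.98 CPM in amyloid WT mice and 0.638, 1.59 and 2.34 CPM in amyloid Hom mice. The difference between cohorts was 1.89 ± 0.27, adjusted p = 1.08e-06 in WT mice and 0.43 ± 0.27, adjusted p = 0.332 in Hom mice. The range of the amyloid WT mice overlapped that of the non-amyloid WT mice only at its lower end. *Irf9*, the DNA-binding subunit of ISGF3, measured 8.08, 8.99 and 10.1 CPM in non-amyloid WT mice, 6.92, 9.14 and 10.2 CPM in non-amyloid Hom mice, 10.7, 14.8 and 27 CPM in amyloid WT mice and 8.87, 11.8 and 13.1 CPM in amyloid Hom mice. Every amyloid WT mouse lay above every non-amyloid WT mouse (0.85 ± 0.11, adjusted p = 2.17e-07), while the Hom groups overlapped (0.31 ± 0.11, adjusted p = 0.0813). *Stat2*, the ISGF3 subunit specific to the interferon pathways, was expressed at 27.3, 33.2 and 36.1 CPM in non-amyloid WT mice, 27.1, 31.9 and 38.8 CPM in non-amyloid Hom mice, 30.2, 37.4 and 51.3 CPM in amyloid WT mice and 26.4, 34.9 and 37.9 CPM in amyloid Hom mice. Its groups overlapped broadly, and its rise in WT mice was the smallest of the 3 in value (0.31 ± 0.09, adjusted p = 0.0118), with 0.06 ± 0.09, adjusted p = 0.685 in Hom mice.

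The 4 nucleic acid sensors were all called higher in amyloid WT mice, and 3 in amyloid Hom mice. *Ifih1* (MDA5, a cytosolic sensor of long double-stranded RNA) measured 6.32, 7.63 and 10.7 CPM in non-amyloid WT mice, 5.97, 7 and 8.71 CPM in non-amyloid Hom mice, 7.41, 9.59 and 17.1 CPM in amyloid WT mice and 8.51, 9.1 and 11.3 CPM in amyloid Hom mice. It rose by similar amounts in WT mice (0.37 ± 0.10, adjusted p = 0.0132) and in Hom mice (0.38 ± 0.10, adjusted p = 0.0154). The call of *Ifih1* in WT mice did not hold in a fit of the 20 WT libraries alone. One amyloid WT mouse, replicate 32, stood apart from the rest of its group at 17.1 CPM. *Ddx58* (RIG-I, a sensor of RNA ends) measured 4.75, 6.17 and 7.81 CPM in non-amyloid WT mice, 3.78, 5.15 and 7.08 CPM in non-amyloid Hom mice, 6.44, 8.95 and 17.7 CPM in amyloid WT mice and 5.9, 7.3 and 9.84 CPM in amyloid Hom mice, and rose in both genotypes (0.72 ± 0.12, adjusted p = 3.66e-05 in WT mice and 0.48 ± 0.12, adjusted p = 0.0111 in Hom mice). *Dhx58* (LGP2, a RIG-I-like regulator) measured 0.587, 0.991 and 1.19 CPM in non-amyloid WT mice, 0.75, 0.905 and 1.13 CPM in non-amyloid Hom mice, 1.21, 1.83 and 4.28 CPM in amyloid WT mice and 1.08, 1.4 and 1.62 CPM in amyloid Hom mice. Its WT cohorts did not overlap, and it too rose in both genotypes (1.15 ± 0.17, adjusted p = 2.19e-06 and 0.54 ± 0.17, adjusted p = 0.0441). *Zbp1*, a sensor of left-handed nucleic acids that can trigger necroptosis, was near the floor without amyloid and measured 0.0625, 0.113 and 0.278 CPM in non-amyloid WT mice, 0.0947, 0.168 and 0.267 CPM in non-amyloid Hom mice, 0.268, 0.685 and 4.76 CPM in amyloid WT mice and 0.101, 0.266 and 0.533 CPM in amyloid Hom mice. Its value in WT mice was among the highest of the members (3.02 ± 0.40, adjusted p = 2.21e-07), and the value in Hom mice was not called (0.71 ± 0.39, adjusted p = 0.28).

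The IFIT proteins bind viral RNA and block its translation, and their genes lie side by side on chromosome 19. All 3 were called higher in amyloid WT mice and 0 in amyloid Hom mice. *Ifit3* measured 8.93, 12.3 and 17.8 CPM in non-amyloid WT mice, 9.64, 11.5 and 15.2 CPM in non-amyloid Hom mice, 10.7, 20.8 and 65 CPM in amyloid WT mice and 12.3, 13.8 and 25.7 CPM in amyloid Hom mice. Amyloid WT replicate 32 carried the highest value, and the other amyloid WT mice overlapped the non-amyloid WT mice at the lower end. The difference was 1.04 ± 0.20, adjusted p = 0.000125 in WT mice and 0.47 ± 0.19, adjusted p = 0.133 in Hom mice. *Ifit1* measured 1.53, 2.9 and 4.43 CPM in non-amyloid WT mice, 2.01, 2.56 and 3.98 CPM in non-amyloid Hom mice, 3.27, 6.73 and 22.2 CPM in amyloid WT mice and 3.07, 4.24 and 7.23 CPM in amyloid Hom mice. Most amyloid WT mice lay above the non-amyloid WT range (1.48 ± 0.23, adjusted p = 4.07e-06), and the value in Hom mice was 0.69 ± 0.23, adjusted p = 0.0536. *Ifit2* measured 14.8, 17.9 and 22.7 CPM in non-amyloid WT mice, 14.3, 16.7 and 20.6 CPM in non-amyloid Hom mice, 16.8, 20.7 and 38.3 CPM in amyloid WT mice and 16.7, 19.8 and 24.5 CPM in amyloid Hom mice. It had the smallest difference of the 3, with 0.29 ± 0.10, adjusted p = 0.0488 in WT mice and 0.26 ± 0.10, adjusted p = 0.104 in Hom mice, and the groups overlapped. The call of *Ifit2* in WT mice held in 12 of 40 fits with a library left out, with an adjusted p up to 0.219, and not under DESeq2, upper-quartile scaling, no filter or a fit of the 20 WT libraries alone.

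The 2′-5′ oligoadenylate synthetases make the messenger that activates RNase L, and the related Oasl proteins act on RNA sensing. Of these 5 members, all were called higher in amyloid WT mice, and *Oasl2* and *Oas1a* in amyloid Hom mice. *Oas2* measured 0.239, 0.414 and 0.699 CPM in non-amyloid WT mice, 0.207, 0.445 and 0.728 CPM in non-amyloid Hom mice, 0.611, 1.05 and 2.95 CPM in amyloid WT mice and 0.376, 0.566 and 0.732 CPM in amyloid Hom mice. In WT mice the cohorts overlapped in their tails (1.59 ± 0.25, adjusted p = 5.5e-06), and the ranges of amyloid and non-amyloid Hom mice ended at about the same level (0.26 ± 0.25, adjusted p = 0.55). *Oasl2* measured 2.03, 2.79 and 5.15 CPM in non-amyloid WT mice, 1.71, 2.77 and 4.02 CPM in non-amyloid Hom mice, 4.11, 8.88 and 41.6 CPM in amyloid WT mice and 3.71, 5.04 and 9.16 CPM in amyloid Hom mice. It rose in WT mice (1.98 ± 0.28, adjusted p = 9.59e-07) and in Hom mice (0.96 ± 0.28, adjusted p = 0.024). *Oasl1*, a translational inhibitor of *Irf7*, measured 0.0155, 0.0596 and 0.188 CPM in non-amyloid WT mice, 0.0641, 0.128 and 0.177 CPM in non-amyloid Hom mice, 0.192, 0.359 and 0.952 CPM in amyloid WT mice and 0.087, 0.171 and 0.326 CPM in amyloid Hom mice. The WT cohorts did not overlap (2.27 ± 0.33, adjusted p = 1.35e-06), and the value in Hom mice was not called (0.43 ± 0.33, adjusted p = 0.435). The counts of *Oasl1* were low, from 1 to 15 in non-amyloid WT and from 15 to 70 in amyloid WT libraries. The gap between its WT cohorts thus rests on few counts. *Oas1a* measured 0.22, 0.373 and 0.851 CPM in non-amyloid WT mice, 0.239, 0.374 and 0.719 CPM in non-amyloid Hom mice, 0.626, 1.59 and 5.25 CPM in amyloid WT mice and 0.324, 0.885 and 1.42 CPM in amyloid Hom mice, and rose in both genotypes with overlap (2.21 ± 0.31, adjusted p = 7.9e-07 in WT mice and 1.01 ± 0.31, adjusted p = 0.0364 in Hom mice). *Oas3* is best given in counts, which reached at most 7 in non-amyloid WT, 6 in non-amyloid Hom and 8 in amyloid Hom libraries and ran from 1 to 67 in amyloid WT libraries, 7 of which reached 10. Its fitted difference in WT mice (3.06 ± 0.60, adjusted p = 0.000234) rests on these few counts.

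Among the members that conjugate or remove ubiquitin-like tags, *Isg15*, the interferon-induced modifier, measured 0.522, 0.968 and 1.53 CPM in non-amyloid WT mice, 0.686, 0.943 and 1.52 CPM in non-amyloid Hom mice, 1.06, 2.27 and 12 CPM in amyloid WT mice and 0.928, 1.35 and 2.04 CPM in amyloid Hom mice. It rose in WT mice (1.76 ± 0.29, adjusted p = 1.69e-05), where the amyloid and non-amyloid ranges overlapped, and was not called in Hom mice (0.45 ± 0.29, adjusted p = 0.349). *Usp18*, which removes *Isg15* from proteins and dampens the receptor, measured 0.535, 0.831 and 1.27 CPM in non-amyloid WT mice, 0.59, 0.924 and 1.52 CPM in non-amyloid Hom mice, 1.29, 2.6 and 10 CPM in amyloid WT mice and 1.16, 1.43 and 2.48 CPM in amyloid Hom mice. Amyloid WT mice all lay above non-amyloid WT mice (2.05 ± 0.26, adjusted p = 8.86e-08), while the Hom groups overlapped (0.78 ± 0.26, adjusted p = 0.0556). *Herc6*, the mouse ligase for *Isg15*, was 1 of the 2 members not called in WT mice (0.19 ± 0.10, adjusted p = 0.278), and measured 23.1, 28.1 and 35.7 CPM in non-amyloid WT mice, 22.1, 28.8 and 34.7 CPM in non-amyloid Hom mice, 26.9, 32.7 and 41.1 CPM in amyloid WT mice and 25.8, 29.6 and 41.3 CPM in amyloid Hom mice. *Trim30a*, a TRIM-family ubiquitin ligase that restrains NF-κB signaling, measured 1.8, 2.56 and 3.87 CPM in non-amyloid WT mice, 2.14, 2.78 and 3.4 CPM in non-amyloid Hom mice, 4.61, 7.84 and 21.2 CPM in amyloid WT mice and 3.72, 4.47 and 8.62 CPM in amyloid Hom mice. The cohorts did not overlap in either genotype, with 1.69 ± 0.19, adjusted p = 3.65e-09 in WT mice and 0.93 ± 0.19, adjusted p = 0.000688 in Hom mice.

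**Figure D3:**
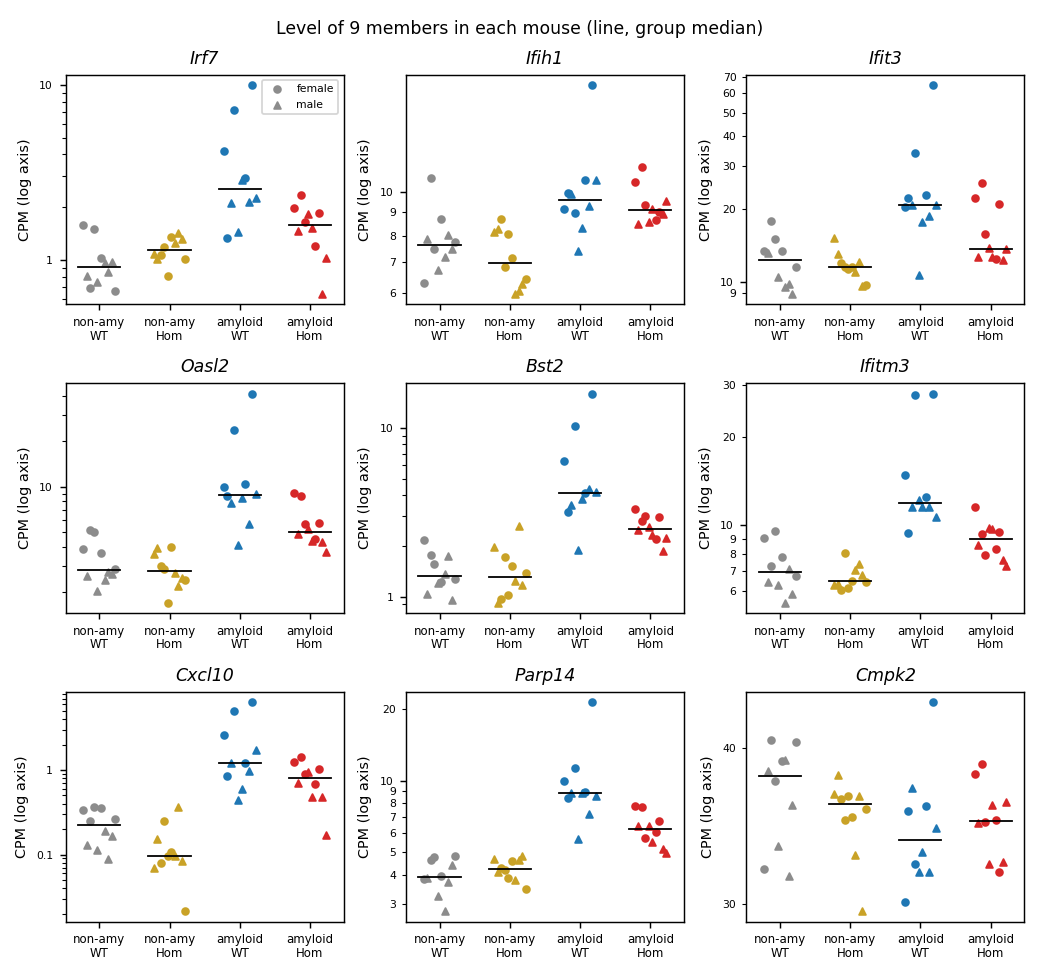
CPM on a log axis for 9 members in each of the 40 mice, by group, with circles for females, triangles for males and a line at the median of 10 mice. Amyloid WT mice spread widely upward for Irf7, Ifit3, Oasl2, Bst2, Ifitm3, Cxcl10 and Parp14, while Cmpk2 lies at about the same level in the 4 groups (medians 33.8 to 38 CPM).

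Restriction factors act on virus particles and membranes. *Bst2* (tetherin, which holds budding virions at the cell surface) measured 0.956, 1.32 and 2.18 CPM in non-amyloid WT mice, 0.924, 1.31 and 2.61 CPM in non-amyloid Hom mice, 1.89, 4.14 and 16 CPM in amyloid WT mice and 1.86, 2.53 and 3.3 CPM in amyloid Hom mice. It rose in WT mice (2.01 ± 0.25, adjusted p = 6.75e-08) and in Hom mice (0.83 ± 0.25, adjusted p = 0.0326). The lowest amyloid WT mouse lay under the highest non-amyloid WT mouse. *Ifitm3*, a blocker of viral membrane fusion that also binds γ-secretase, measured 5.47, 6.93 and 9.57 CPM in non-amyloid WT mice, 6.04, 6.46 and 8.07 CPM in non-amyloid Hom mice, 9.4, 11.9 and 28.1 CPM in amyloid WT mice and 7.26, 8.97 and 11.6 CPM in amyloid Hom mice. Its amyloid WT range began just under the highest non-amyloid WT mouse (1.07 ± 0.15, adjusted p = 6.61e-07), and the value in Hom mice was 0.42 ± 0.15, adjusted p = 0.0759. *Rsad2* (viperin, a radical SAM enzyme) measured 0.692, 1.38 and 1.96 CPM in non-amyloid WT mice, 0.865, 1.43 and 1.93 CPM in non-amyloid Hom mice, 1.66, 3.34 and 7.56 CPM in amyloid WT mice and 1.67, 2.18 and 3.08 CPM in amyloid Hom mice. It rose in both genotypes, by 1.40 ± 0.19, adjusted p = 3.67e-07 in WT mice and 0.70 ± 0.19, adjusted p = 0.0143 in Hom mice. The dynamin-like GTPase *Mx1* measured 0.164, 0.424 and 0.663 CPM in non-amyloid WT mice, 0.239, 0.331 and 0.584 CPM in non-amyloid Hom mice, 0.617, 1.71 and 3.94 CPM in amyloid WT mice and 0.422, 0.817 and 2.01 CPM in amyloid Hom mice. It rose in WT mice (2.10 ± 0.29, adjusted p = 5.32e-07) and in Hom mice (1.31 ± 0.29, adjusted p = 0.00231). Its neighbour *Mx2*, which the annotation lists as a polymorphic pseudogene, measured 0.644, 1.05 and 1.36 CPM in non-amyloid WT mice, 0.702, 0.888 and 1.27 CPM in non-amyloid Hom mice, 1.29, 1.93 and 4.22 CPM in amyloid WT mice and 0.955, 1.39 and 1.99 CPM in amyloid Hom mice, with 1.01 ± 0.16, adjusted p = 1.19e-05 and 0.58 ± 0.17, adjusted p = 0.0236. Both are disrupted in many laboratory strains, and the groups overlapped for both. *Samd9l*, a brake on translation, measured 5.35, 7.42 and 10.5 CPM in non-amyloid WT mice, 5.31, 6.66 and 8.67 CPM in non-amyloid Hom mice, 8.11, 9.8 and 16.6 CPM in amyloid WT mice and 7.56, 9.79 and 12.1 CPM in amyloid Hom mice, and rose in WT mice (0.52 ± 0.13, adjusted p = 0.00463) and in Hom mice (0.54 ± 0.13, adjusted p = 0.00477).

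*Cmpk2*, a nucleotide kinase that lies beside *Rsad2* on chromosome 12, was the other member not called in WT mice. It measured 31.6, 38 and 40.6 CPM in non-amyloid WT mice, 29.6, 36 and 38 CPM in non-amyloid Hom mice, 30.1, 33.8 and 43.5 CPM in amyloid WT mice and 31.8, 35 and 38.8 CPM in amyloid Hom mice, so that the 4 groups overlapped throughout. The log2 fold change was -0.09 ± 0.06, adjusted p = 0.399 in WT mice and -0.01 ± 0.06, adjusted p = 0.938 in Hom mice. Per kilobase of exon, *Cmpk2* was among the more abundant members in non-amyloid WT mice, with a median of 11.9 CPM per kb, after *Ifi27* at 16.8 and before *Ifitm3* at 10.2. At the other end stood *Zbp1* at 0.032, *Oasl1* at 0.0228 and *Oas3* at 0.00538 CPM per kb.

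*Cxcl10*, the chemokine that draws CXCR3-bearing lymphocytes, had the highest fold change of all members (chr5:92346638-92348889, mm10). It measured 0.089, 0.221 and 0.37 CPM in non-amyloid WT mice, 0.0215, 0.0966 and 0.369 CPM in non-amyloid Hom mice, 0.447, 1.2 and 6.36 CPM in amyloid WT mice and 0.171, 0.802 and 1.42 CPM in amyloid Hom mice. Every amyloid WT mouse exceeded every non-amyloid WT mouse (3.19 ± 0.43, adjusted p = 2.93e-07), and it rose in Hom mice as well (2.62 ± 0.45, adjusted p = 6.89e-05), with overlap. Of its exonic bases 5.91% lie on exons of *Art3* on the opposite strand.

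The interferon-inducible GTPases guard vacuoles that hold pathogens. *Gbp2* measured 2.97, 3.98 and 6.24 CPM in non-amyloid WT mice, 2.53, 3.89 and 5.28 CPM in non-amyloid Hom mice, 3.26, 6.67 and 28.5 CPM in amyloid WT mice and 3.38, 5.07 and 6.61 CPM in amyloid Hom mice. It rose in WT mice (1.15 ± 0.23, adjusted p = 0.000354) and was not called in Hom mice (0.36 ± 0.23, adjusted p = 0.348), and the cohorts overlapped in both genotypes. *Irgm1*, which regulates the other immunity-related GTPases and autophagy, measured 10.7, 11.2 and 15.2 CPM in non-amyloid WT mice, 9, 11.5 and 14.2 CPM in non-amyloid Hom mice, 14.4, 22.1 and 60.7 CPM in amyloid WT mice and 12.6, 15.4 and 22.1 CPM in amyloid Hom mice. The lowest amyloid WT mouse lay below the highest non-amyloid WT mouse, and the gene rose in both genotypes (1.02 ± 0.16, adjusted p = 4.31e-06 in WT mice and 0.49 ± 0.16, adjusted p = 0.0447 in Hom mice). *Igtp* (Irgm3), another of these GTPases, measured 3.81, 5.14 and 7.11 CPM in non-amyloid WT mice, 1.96, 4.37 and 8.51 CPM in non-amyloid Hom mice, 6.7, 9.71 and 46.4 CPM in amyloid WT mice and 6.41, 7.43 and 10.2 CPM in amyloid Hom mice, with 1.27 ± 0.25, adjusted p = 0.000254 in WT mice and 0.70 ± 0.25, adjusted p = 0.077 in Hom mice. Of its exonic bases 8.01% are shared with *Irgm2*. *Gbp3* measured 3.65, 5.58 and 7.48 CPM in non-amyloid WT mice, 3.22, 5.77 and 7.91 CPM in non-amyloid Hom mice, 3.95, 8.7 and 33.3 CPM in amyloid WT mice and 3.94, 6.27 and 9.34 CPM in amyloid Hom mice, and *Gbp7* measured 2.56, 5.98 and 8.46 CPM in non-amyloid WT mice, 2.95, 5.98 and 8.98 CPM in non-amyloid Hom mice, 6.06, 7.92 and 21 CPM in amyloid WT mice and 6.08, 8.43 and 10.7 CPM in amyloid Hom mice. Both were called in WT mice (1.08 ± 0.23, adjusted p = 0.000729 for *Gbp3* and 0.61 ± 0.19, adjusted p = 0.0373 for *Gbp7*) and not in Hom mice (0.03 ± 0.23, adjusted p = 0.957 and 0.47 ± 0.19, adjusted p = 0.139), where the sign of *Gbp3* turned with sex as a covariate (-0.01). The call of *Gbp7* in WT mice held in 32 of 40 fits with a library left out. It did not hold under limma-voom, no filter or a fit of the 20 WT libraries alone.

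The ADP-ribosyltransferases *Parp14* and *Parp9*, the latter the partner of the ubiquitin ligase *Dtx3l*, were called in both genotypes. *Parp14* measured 2.8, 3.91 and 4.81 CPM in non-amyloid WT mice, 3.46, 4.21 and 4.79 CPM in non-amyloid Hom mice, 5.64, 8.87 and 21.5 CPM in amyloid WT mice and 4.91, 6.23 and 7.79 CPM in amyloid Hom mice. Neither the WT groups (1.31 ± 0.14, adjusted p = 2.28e-09) nor the Hom groups (0.56 ± 0.14, adjusted p = 0.00841) overlapped between cohorts, and the adjusted p in WT mice was the lowest of the 44. *Parp9* measured 2.79, 3.59 and 4.27 CPM in non-amyloid WT mice, 3.03, 3.58 and 4.21 CPM in non-amyloid Hom mice, 4.45, 7.29 and 16 CPM in amyloid WT mice and 4.03, 5.29 and 6.75 CPM in amyloid Hom mice. The WT cohorts did not overlap (1.18 ± 0.14, adjusted p = 1.21e-08), and it rose in Hom mice (0.54 ± 0.14, adjusted p = 0.00944). *Dtx3l* measured 5.3, 6.99 and 7.99 CPM in non-amyloid WT mice, 5.93, 6.75 and 7.5 CPM in non-amyloid Hom mice, 6.8, 9.43 and 16.4 CPM in amyloid WT mice and 6.41, 7.89 and 10.4 CPM in amyloid Hom mice, and was called in WT mice (0.53 ± 0.10, adjusted p = 0.000192) and not in Hom mice (0.30 ± 0.10, adjusted p = 0.0633). The 2 genes overlap on opposite strands, over 9.4% of the exonic bases of *Parp9* and 8% of those of *Dtx3l*.

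Schlafen proteins act on growth arrest and on tRNA. *Slfn8* measured 0.451, 0.949 and 1.73 CPM in non-amyloid WT mice, 0.517, 0.816 and 1.52 CPM in non-amyloid Hom mice, 1.89, 3.71 and 10.3 CPM in amyloid WT mice and 1.48, 2.3 and 4.08 CPM in amyloid Hom mice. Its amyloid WT mice all lay above its non-amyloid WT mice (2.12 ± 0.24, adjusted p = 7.12e-09), and it rose in Hom mice (1.50 ± 0.24, adjusted p = 2.7e-05). *Slfn5* measured 4.81, 5.77 and 6.64 CPM in non-amyloid WT mice, 4.8, 6.24 and 8.03 CPM in non-amyloid Hom mice, 7.41, 8.52 and 17.9 CPM in amyloid WT mice and 6.25, 6.55 and 10.5 CPM in amyloid Hom mice, with no overlap between WT cohorts (0.77 ± 0.12, adjusted p = 9.54e-06) and broad overlap between Hom cohorts (0.21 ± 0.12, adjusted p = 0.316). For *Slfn5*, 8.84% of the exonic bases overlap an opposite-strand transcript. *Slfn2*, which protects tRNA and keeps T cells quiescent, measured 1.24, 1.7 and 1.93 CPM in non-amyloid WT mice, 1.1, 1.53 and 2.18 CPM in non-amyloid Hom mice, 2, 2.96 and 7.02 CPM in amyloid WT mice and 1.63, 2.22 and 3.23 CPM in amyloid Hom mice. Its WT cohorts did not overlap (1.01 ± 0.17, adjusted p = 1.75e-05), and it rose in Hom mice (0.58 ± 0.17, adjusted p = 0.0266).

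Of the members whose function is less clear, *Ifi44* measured 0.458, 0.717 and 1.28 CPM in non-amyloid WT mice, 0.366, 0.68 and 1.14 CPM in non-amyloid Hom mice, 0.613, 2.69 and 18.7 CPM in amyloid WT mice and 0.514, 1.09 and 1.82 CPM in amyloid Hom mice. It rose in WT mice (2.53 ± 0.38, adjusted p = 2.16e-06) and was not called in Hom mice (0.68 ± 0.37, adjusted p = 0.268). Amyloid WT mice covered a wide range that began within the non-amyloid WT mice and ended at 18.7 CPM in replicate 32. *Ifi27l2a*, a mitochondrial protein of the ISG12 family, measured 0.0309, 0.404 and 1.1 CPM in non-amyloid WT mice, 0.16, 0.35 and 0.519 CPM in non-amyloid Hom mice, 0.639, 1.47 and 10.4 CPM in amyloid WT mice and 0.464, 0.83 and 1.42 CPM in amyloid Hom mice, with 2.64 ± 0.43, adjusted p = 1.15e-05 in WT mice and 1.31 ± 0.43, adjusted p = 0.0513 in Hom mice. The counts of close relatives in the Ifit, Oas, Gbp, Slfn and *Ifi27* families may share reads and are uncertain to that extent. *Ifi27*, of the same family and its neighbour on chromosome 12, measured 22.7, 24.7 and 30.3 CPM in non-amyloid WT mice, 22.1, 24.4 and 28.3 CPM in non-amyloid Hom mice, 33.8, 36.7 and 66.4 CPM in amyloid WT mice and 24.4, 30.6 and 37.6 CPM in amyloid Hom mice. It was the most abundant member per kilobase and rose in both genotypes (0.70 ± 0.10, adjusted p = 8.85e-07 in WT mice and 0.36 ± 0.10, adjusted p = 0.0166 in Hom mice), without overlap between the WT cohorts.

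*Ifi35*, a modulator of innate signaling, measured 1.48, 1.85 and 2.23 CPM in non-amyloid WT mice, 1.39, 1.94 and 2.19 CPM in non-amyloid Hom mice, 2.33, 2.98 and 5.81 CPM in amyloid WT mice and 1.73, 2.14 and 3.28 CPM in amyloid Hom mice. Its WT cohorts did not overlap (0.88 ± 0.14, adjusted p = 5.89e-06), and the value in Hom mice was 0.27 ± 0.14, adjusted p = 0.245. Of its exonic bases 16.8% overlap an opposite-strand transcript. *Xaf1*, a pro-apoptotic antagonist of XIAP, measured 4.59, 5.35 and 7.49 CPM in non-amyloid WT mice, 4.66, 5.58 and 7.21 CPM in non-amyloid Hom mice, 6.07, 8.78 and 18.3 CPM in amyloid WT mice and 6.43, 6.97 and 8.68 CPM in amyloid Hom mice, with 0.80 ± 0.12, adjusted p = 3.16e-06 in WT mice and 0.36 ± 0.12, adjusted p = 0.0627 in Hom mice. *Rtp4*, a chaperone of receptors, measured 1.46, 1.8 and 2.65 CPM in non-amyloid WT mice, 1.44, 1.79 and 2.27 CPM in non-amyloid Hom mice, 1.88, 3.96 and 14.5 CPM in amyloid WT mice and 1.7, 2.73 and 4.8 CPM in amyloid Hom mice, with 1.37 ± 0.22, adjusted p = 9.72e-06 and 0.64 ± 0.22, adjusted p = 0.0661. Both were called in WT mice and not in Hom mice, and 13.9% of the exonic bases of *Rtp4* overlap another transcript of its strand.

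Within the amyloid cohort, the members were lower in Hom than in WT mice in nearly every case, but none passed the test for a single gene. Of the 44 members, 43 had a log2 fold change below 0, with a median of -0.69 (1.62-fold lower) and a range from -2.27 (*Oas3*, at few counts) to 0.02 (*Cmpk2*), beside a median of 0.00 over all genes. By edgeR's quasi-likelihood test 0 members were called, against 0.0753% of all genes. At an unadjusted p under 0.05 there were 37 members, all lower, against 5.77% of all genes that were lower at that level. At an adjusted p under 0.1 there were 12, against 0.974% of all genes. The lowest adjusted p was 0.0554, for *Oas2*. No member had all amyloid WT mice above all amyloid Hom mice, as did 0.00941% of all genes. Without *Oas3*, whose selection used the amyloid WT mice, the counts were 36 and 11 of 43 and the range began at -1.92 (*Ifi44*).

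Whether single members were called depended on the fit. One fit of all 40 libraries called 30 members lower (1.91% of all genes), DESeq2 18 (1.34%) and a fit with sex as a covariate 11 (1.14%), while limma-voom called 0. Without amyloid WT replicate 13, a male with the lowest value of its group for 32 of the 44 members, 15 were called (0.913% of all genes were called lower). Without amyloid WT replicate 32 none was called and the median became -0.45.

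Per mouse, the highest amyloid WT mouse exceeded the highest amyloid Hom mouse in every member except *Herc6*, while the lower ends of the groups met. For *Oas2* the median was 1.05 CPM in amyloid WT and 0.566 CPM in amyloid Hom mice, and the highest Hom mouse (0.732 CPM) lay above the lowest WT mouse (0.611 CPM). The difference was -1.23 ± 0.26, adjusted p = 0.0554. For *Zbp1*, with medians of 0.685 and 0.266 CPM, it was -1.87 ± 0.46, adjusted p = 0.0787. For *Ifi44*, with medians of 2.69 and 1.09 CPM, it came to -1.92 ± 0.46, adjusted p = 0.0785. Of the 10 mice in each group, those of amyloid WT were spread over the wider range for all 3 genes.

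*Bst2* (-1.17 ± 0.28, adjusted p = 0.0787), *Ifitm3* (-0.75 ± 0.18, adjusted p = 0.0791), *Usp18* (-1.15 ± 0.30, adjusted p = 0.0846), *Parp14* (-0.67 ± 0.17, adjusted p = 0.0846) and *Ifi27l2a* (-1.73 ± 0.45, adjusted p = 0.0878) had adjusted p under 0.1 as well. So did the regulators *Irf7* (-1.23 ± 0.33, adjusted p = 0.0974) and *Isg15* (-1.33 ± 0.36, adjusted p = 0.0991), and *Oasl1* (-1.21 ± 0.31, adjusted p = 0.0829). The value of *Oas3*, -2.27 ± 0.56, is a description, since the amyloid WT mice selected it. Farther from the threshold lay *Cxcl10* (-1.37 ± 0.44, adjusted p = 0.192), *Gbp2* (-0.87 ± 0.28, adjusted p = 0.192), *Rsad2* (-0.61 ± 0.20, adjusted p = 0.202) and *Ifit3* (-0.64 ± 0.24, adjusted p = 0.314). The smallest differences were those of *Ifih1* (-0.12 ± 0.11, adjusted p = 0.714), *Herc6* (-0.06 ± 0.10, adjusted p = 0.832) and *Cmpk2* (0.02 ± 0.06, adjusted p = 0.915). Without amyloid WT replicate 32 the value of *Ifih1* became 0.00.

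The difference between the genotypes' cohort differences was tested as an interaction of genotype and cohort over 40 libraries. By edgeR's quasi-likelihood test 0 members were called, as were 0% of all genes, and DESeq2 called 2 members, *Zbp1* and *Irf7*, and 0.174% of all genes in the same direction. At an unadjusted p under 0.05 there were 29 members, all with a lower cohort difference in Hom mice, against 5.54% of all genes. The median of the members was -0.64 on the log2 scale, and -0.42, with 20 members at that level, without amyloid WT replicate 32. *Zbp1* had -2.32 ± 0.56, adjusted p = 0.111, *Oasl1* -1.84 ± 0.46, adjusted p = 0.111 and *Irf7* -1.45 ± 0.38, adjusted p = 0.122. *Ifih1*, by contrast, had an interaction of 0.01 ± 0.15, adjusted p = 0.987, and *Samd9l* of 0.02 ± 0.18, adjusted p = 0.969.

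Without amyloid, the ranges of the genotypes overlapped for all 44 members. In Hom compared to WT mice of the non-amyloid cohort, 16 members were higher and 28 lower, with a median log2 fold change of -0.04. By edgeR's quasi-likelihood test 0 were called, as by DESeq2, against 0.0329% of all genes, and 1 had an unadjusted p under 0.05, against 4.61% of all genes. That member was *Cxcl10*, with -0.79 ± 0.37, adjusted p = 0.965 and a level close to the floor in both groups. A p that misses the threshold does not show that the groups were alike.

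Females and males of the amyloid cohort were compared as well. All 44 members had a higher fitted value in females than in males, with genotype as a covariate, and the median log2 difference was 0.48 (1.39-fold). Medians within 1 group could go the other way, as for *Ifi44* in amyloid WT mice (1.87 CPM in females and 3.51 CPM in males). By edgeR's quasi-likelihood test 0 were called, against 0.24% of all genes, while 33 had an unadjusted p under 0.05, against 6% of all genes that were higher in females at that level, and DESeq2 called 7 (1.13% of the genes DESeq2 tested were called higher). The lowest adjusted p were those of *Slfn8* (0.79 ± 0.19, adjusted p = 0.0789) and *Ifit3* (0.74 ± 0.19, adjusted p = 0.0997). Without amyloid WT replicate 32, a female, the median was 0.27, and 24 members had an unadjusted p under 0.05 by edgeR. In the non-amyloid cohort the median was 0.08, with 0 members called by edgeR (0.122% of all genes) and by DESeq2, and 2 higher at an unadjusted p under 0.05 (2.86% of all genes). Over the amyloid cohort 10 of 11 microglial markers were likewise higher in females at an unadjusted p under 0.05, 2 of them called, with a median of 0.45, and their part in the members' values was not tested.

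Split by sex, the difference between amyloid Hom and WT mice had a median of -0.79 in females, which became -0.47 without amyloid WT replicate 32, and of -0.45 in males. In 5 against 5 females edgeR's quasi-likelihood test called 2 members lower, where 0.179% of all genes were called, and 37 had an unadjusted p under 0.05 and lay lower (8.81% of all genes). *Oas2* measured 0.828, 1.06 and 2.95 CPM (lowest, median and highest) in WT females and 0.376, 0.549 and 0.652 CPM in Hom females. The ranges did not overlap, and edgeR gave -1.73 ± 0.32, adjusted p = 0.0358. *Irf9* measured 15.1, 16.7 and 27 CPM in WT females and 8.87, 12.2 and 13.1 CPM in Hom females, again without overlap, and edgeR gave -0.80 ± 0.15, adjusted p = 0.0395. *Parp14* (lowest WT 8.46 and highest Hom 7.79 CPM) and *Parp9* (7.35 and 6.75 CPM) did not overlap either. Nor did *Oas3*, which the amyloid WT mice selected. The share of all genes without overlap in 5 against 5 mice was not taken. The count of 2 called members varied with single libraries. It was 0 in 8 of 20 fits with a library left out, those without amyloid WT replicate 5, 9, 12 or 32 and those without amyloid Hom replicate 10, 19, 30 or 33. It was 8 without amyloid Hom replicate 3, 15 without amyloid WT replicate 26 and 28 without amyloid WT replicate 8 (3.74% of all genes were called lower in the last). DESeq2 called 20 in females (1.69% of the genes it tested were called lower), and limma-voom 0.

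In 5 against 5 males 0 members were called by edgeR, against 0.00471% of all genes, and 11 were lower at an unadjusted p under 0.05, against 2.15% of all genes. *Oas2* measured 0.611, 0.831 and 1.13 CPM in WT males and 0.483, 0.58 and 0.732 CPM in Hom males, and *Irf9* 10.7, 12.8 and 14.4 and 9.99, 11.7 and 12.9 CPM, with overlap for both. The male ranges did not overlap for *Ifitm3* (lowest WT 10.7 and highest Hom 9.8 CPM) and *Trim30a* (4.61 and 4.46 CPM). Neither did those of *Ifi27* (33.8 and 32.2 CPM) and *Slfn5* (7.41 and 6.97 CPM). The share of all genes without overlap was not taken here either. The interaction of genotype and sex itself called 0 members by edgeR and by DESeq2, and 0% of all genes by edgeR, with 4 members lower at an unadjusted p under 0.05 (2.7% of all genes) and the lowest for *Irf9* (-0.64 ± 0.21, adjusted p = 0.817). Its median over the members was -0.35, and -0.05 without amyloid WT replicate 32. The sexes were thus not shown to differ in the effect of genotype.

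The level of the whole set was also taken per mouse. The mean over the 44 members of each mouse's log2 CPM, set against the mean of the non-amyloid WT mice, ran from -0.30 to 0.31 in non-amyloid WT and from -0.30 to 0.22 in non-amyloid Hom mice. In amyloid WT mice it ran from 0.34 in replicate 13 to 2.55 in replicate 32 (mean 1.19, SD 0.61). The second highest was replicate 12 at 1.87, and both of these mice are females. In amyloid Hom mice it ran from 0.28 in replicate 39 to 0.97 in replicate 16 (mean 0.56, SD 0.24). The SD was thus higher in amyloid WT than in any other group.

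**Figure D4:**
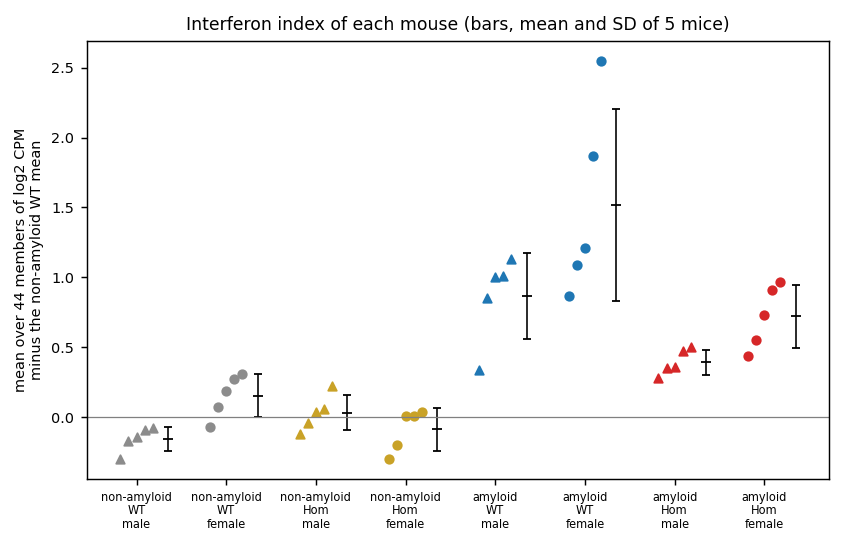
Mean log2 CPM of the 44 members per mouse relative to the mean of non-amyloid WT mice (y axis), by group and sex (circles, females; triangles, males), with bars for the mean and SD of 5 mice. The amyloid WT mice span 0.34 to 2.55 and the amyloid Hom mice 0.28 to 0.97, above most of the non-amyloid mice.

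Replicate 32 was the highest amyloid WT mouse for 40 members, and replicate 12 for the other 4. Replicate 32 exceeded every non-amyloid WT mouse in all 44 members, and replicate 13 in 15. Among amyloid Hom mice the number above every non-amyloid WT mouse ran from 10 in replicate 39 to 36 in replicate 16. Replicates 16 and 3, both females, held the highest amyloid Hom value for 20 and 17 members.

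Over the 40 mice the members' values were correlated. After each gene was centred on its group and sex, the mean correlation (Pearson's r) between pairs of members over the 40 mice was 0.49, beside 0.002 between pairs of all genes tested. This is a description, since all members were measured in the same libraries and share their depth and tissue. The member with the lowest mean r to the others was *Stat2* (0.08), followed by *Herc6* (0.20), *Oas3* (0.29) and *Cmpk2* (0.31), and the highest were *Oasl2* and *Ifit3* (0.64 each). Without amyloid Hom replicate 19 the mean was again 0.49. It was not taken without amyloid WT replicate 32, the highest mouse of its group for 40 members. The part of that mouse in the mean r was therefore not tested.

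The ligands were not measurable here. All 21 interferon genes listed, from the Ifna cluster to *Ifnb1*, *Ifnk* and *Ifng*, had a row, and 0 passed the filter. The highest count of any of them in a library was 9, and the highest sum over 40 libraries was 27, for *Ifnk*, with 6 for *Ifnb1*. Poly-A libraries at this depth do not show whether a few cells expressed them.

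Of 11 receptor and JAK-STAT genes, 5 were called higher in amyloid WT mice (6.62% of all genes) and 1 in amyloid Hom mice (5.71%), with medians of 0.27 and 0.00. Those in WT mice included the transcription factor *Stat3* (log2 fold change 0.55) and the receptor subunit *Ifnar2* (0.40), and in Hom mice it was *Il10rb* (0.34). Of 17 further genes of nucleic acid sensing, 12 were called higher in WT and 9 in Hom mice, with medians of 0.70 and 0.38. The endosomal RNA receptor *Tlr7* (1.62 and 1.01) and the transporter *Slc15a3* (2.70 and 3.08) rose in both. The value of *Slc15a3* in Hom mice included 1 mouse at 56.6 CPM, with a median of 5.16 CPM in amyloid Hom and 7.89 CPM in amyloid WT mice. In WT mice the adaptor STING (*Tmem173*, 0.86 in WT mice) and the DNA receptor *Tlr9* (1.50 in WT mice) were called as well. Of 13 negative regulators, 2 were called higher in WT mice (*Nlrc3* at 0.88 and *Socs3* at 0.50) and 0 in Hom mice. The shares of all genes called higher, 6.62% in WT and 5.71% in Hom mice, apply to all these lists. With lists this short, 1 of 11 and 0 of 13 in Hom mice are not set apart from that share.

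A further list of 79 interferon-stimulated genes outside the 44 members held 73 that were tested. In WT mice 51 of them were called higher (6.62% of all genes), with a median of 0.89, and in Hom mice 24 (5.71%), with a median of 0.43. Examples were the transcription factor *Irf8* (1.77 in WT and 1.02 in Hom mice), the secreted *Lgals3bp* (2.20 and 1.20) and the DNA-binding *Ifi204* (3.59 and 2.32). In amyloid Hom compared to WT mice 41 of the 73 were lower at an unadjusted p under 0.05 (5.77% of all genes), with a median of -0.45.

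**Figure D5:**
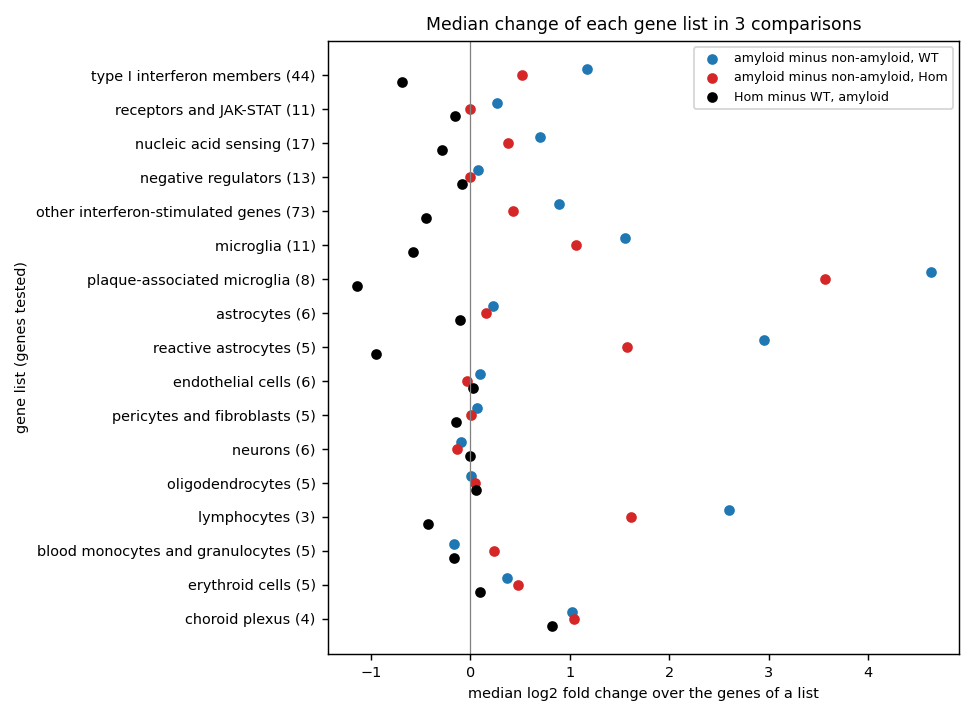
Median log2 fold change of the 44 members, the related gene lists and the cell type marker lists (x axis) in 3 comparisons, with the number of genes tested behind each name. Plaque-associated microglial genes lie farthest from 0 (medians 4.63, 3.57 and -1.14), while neuronal and endothelial markers lie near 0.

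Markers of microglia and reactive astrocytes moved with the members. The 6 general astrocyte markers changed less, with medians of 0.23 in WT and 0.16 in Hom mice for the cohort difference. Oligodendrocyte markers had median sums of 3538, 3623, 3580 and 3752 CPM in non-amyloid WT, non-amyloid Hom, amyloid WT and amyloid Hom mice. All 11 microglial markers were called higher in amyloid WT mice (6.62% of all genes) and 10 in amyloid Hom mice (5.71%), with medians of 1.55 and 1.06. Their summed level ran from 420 to 576 CPM in non-amyloid WT, 451 to 536 CPM in non-amyloid Hom, 896 to 2106 CPM in amyloid WT and 688 to 1244 CPM in amyloid Hom mice, with replicate 32 the highest and replicate 13 the lowest of the amyloid WT mice. In amyloid Hom compared to WT mice their median was -0.58, with 10 of 11 lower at an unadjusted p under 0.05 (5.77% of all genes) and 0 called. The median of the members, -0.69, was of about that size, and the part of microglial RNA in it was not tested.

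The 8 plaque-associated microglial genes had medians of 4.63 in WT and 3.57 in Hom mice for the cohort difference, and -1.14 in amyloid Hom compared to WT mice, where 1, *Gpnmb*, was called lower (-1.61, adjusted p = 0.033 by edgeR). They summed to 185 to 623 CPM in amyloid WT and 142 to 268 CPM in amyloid Hom mice. The 5 reactive astrocyte genes had medians of 2.95, 1.57 and -0.95, and summed to 557 to 2373 CPM in amyloid WT and 339 to 884 CPM in amyloid Hom mice. Neuronal markers had medians of -0.10 and -0.14 for the cohort difference, and endothelial markers of 0.10 and -0.03. Of 6 lymphocyte markers 3 were tested, of which *Cd8a* (2.96) and *Cd3e* (2.60), both at most 0.474 CPM in any mouse, were called higher and *Cd4* (-0.72) lower in amyloid WT mice. The part of these cell types in the members' values was not tested.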

How the data were processed

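Cortical poly-A RNA of 40 mice was measured by paired-end sequencing. The authors aligned reads to mm10 and counted them per gene. The paper's methods name TopHat within MAP-RSeq and featureCounts, the submitters' processing notes name STAR 2.5.2b, featureCounts 1.5.1 and edgeR, and the strand setting is not given in the sources used here. The deposited values are raw counts with no normalization by the authors. Groups came from the labels.

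The filter kept genes that reached 10 counts in 4 or more libraries (21253 of 43346). Counts were normalized by TMM, and groups were compared by edgeR's quasi-likelihood test (edgeR 4.0.16, R 4.3.3) with Benjamini-Hochberg adjustment over all 21253 genes, with no covariate within cohorts, in one fit of 4 groups between cohorts, and with genotype as a covariate for sex. A gene was called when its adjusted p was under 0.05 and its log2 fold change beyond 0.25 in either direction. Per-mouse log2 CPM used a prior count of 2. CPM is scaled to the TMM library size. The depth, 41646271 to 105903846 counts a library, sets the counting error, which is large for genes near 10 counts. A p-value sets a group difference against the spread between mice, which edgeR estimates over all groups of a fit.

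The members and lists were chosen with earlier results of these data known. Values per group were given for 16 members that stand for the roles, the 5 of lowest p in each comparison and every member called. *Herc6* and *Cmpk2*, outside this rule, were added after their values were seen. Alternatives were DESeq2 1.42.0, limma-voom (limma 3.58.1), upper-quartile and library-size scaling, no filter, sex as a covariate, one fit of 40 libraries, only the 20 libraries compared and each library left out in turn. The test was tried on simulated counts with 200 of 21253 genes changed. For the comparison of amyloid Hom and WT mice it called 74 of 100 genes changed by 1 log2 unit, 50 of 100 changed by 0.5, and 6 unchanged genes. The changed genes were drawn at random from all genes tested, and each gene was simulated independently. The members are correlated and were not drawn at random, so these counts do not give the power for them. Promoters were RefSeq windows (GRCm38.p6), matched by symbol, and gene positions those of mm10. No library was left out here. A further gene of the lists is not reported here by name.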

Additional observations from a re-analysis of the deposited data

Results flagged for a closer look

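A mouse was examined further when its gap to the nearest of its group exceeded Dixon's 95% critical value for 10 mice, which chance gives in about 1 of 20 groups of normally distributed values. This held for 27 of 180 sets of 10 values tested, over all 44 members and their mean, and for 24 of the 27 the mouse was amyloid WT replicate 32, so that these are not independent of each other. Members were tested in CPM, where high values weigh more than on the log2 scale of their mean. For that mean, replicate 32 (2.55, with the next mouse at 1.87) was not flagged. In this female *Ifit1* measured 22.2 CPM, *Ifit2* 38.3 CPM, *Ifit3* 65 CPM, *Isg15* 12 CPM, *Oasl2* 41.6 CPM and *Ifi44* 18.7 CPM. Among sensors and effectors, *Ifih1* measured 17.1 CPM, *Zbp1* 4.76 CPM, *Rsad2* 7.56 CPM and *Trim30a* 21.2 CPM. It had 21.5 CPM of *Parp14*, 16 CPM of *Parp9*, 16.4 CPM of *Dtx3l*, 14.5 CPM of *Rtp4* and 18.3 CPM of *Xaf1*. Its other values were 28.5 CPM for *Gbp2*, 33.3 CPM for *Gbp3*, 21 CPM for *Gbp7*, 46.4 CPM for *Igtp*, 60.7 CPM for *Irgm1*, 7.02 CPM for *Slfn2*, 17.9 CPM for *Slfn5*, 10.3 CPM for *Slfn8* and 43.5 CPM for *Cmpk2*. The same mouse had the highest summed microglial markers of its group, 2106 CPM, and the highest sums of plaque-associated microglial genes (623 CPM), choroid plexus markers (383 CPM, against a group median of 19.9 CPM) and lymphocyte markers (17.1 CPM). Choroid plexus sums reached 193 CPM in non-amyloid WT, 465 CPM in non-amyloid Hom and 668 CPM in amyloid Hom mice. The lymphocyte sum was mostly *Cd4* and lay below the non-amyloid WT median of 19.3 CPM. The part of these cell types in the values of replicate 32 was not tested.

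In amyloid Hom replicate 16, a female, *Slfn5* stood apart at 10.5 CPM. In non-amyloid Hom replicate 23 it was *Ifit2* at 20.6 CPM, and in non-amyloid WT replicate 29 *Zbp1* at 0.278 CPM.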

How the results depend on the processing

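For the amyloid cohort comparison in WT mice, 38 to 42 members were called under every alternative and library left out, with the fewest without amyloid WT replicate 32. In Hom mice the count of 18 became 28 when only the 20 Hom libraries were fitted, and ran from 11 (without amyloid Hom replicate 3) to 28 (without amyloid WT replicate 32) with a library left out. For amyloid Hom compared to WT mice, where 0 members were called, DESeq2 called 18, sex as a covariate 11, one fit of 40 libraries 30 and, as an alternative chosen after seeing the data, sex as a covariate without amyloid Hom replicate 19 called 4. Leaving out a library gave 0 to 15, the 15 without amyloid WT replicate 13, and medians from -0.76 to -0.45. Limma-voom, upper-quartile scaling, library size alone, no filter and no fold threshold called 0 here. Over all genes that comparison called 16, against 303 by DESeq2, 251 with sex as a covariate and 612 in one fit of 40. The interaction of genotype and cohort called 0, and 2 by DESeq2. The sex difference in the amyloid cohort called 0, 7 by DESeq2 and 0 to 1 with a library left out, the 1 without amyloid WT replicate 26. The share of members with a promoter match was 60.6% for the core and 39.4% for the longer core. Of single members, *Ifih1* in amyloid Hom compared to WT mice (-0.12) ran from -0.16 without amyloid WT replicate 13 to 0.00 without replicate 32, and *Gbp7* from -0.22 to 0.05 without replicate 32. In the cohort comparison of Hom mice *Gbp3* (0.03) ran from -0.06 to 0.08 with a library left out and was -0.01 with sex as a covariate, and *Cmpk2* (-0.01) ran from -0.03 to 0.01 and was 0.00 with upper-quartile scaling. The Hom against WT comparison in females called 2 members, 20 by DESeq2, 0 by limma-voom and 0 to 28 with a library left out. The cause of these changes was not tested. No paired analysis was made, since the sample labels used here name no litter or pair. Members under 10 counts in a library, such as *Oas3*, *Oasl1* and *Zbp1*, carry the largest counting error.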
